A study of Mus musculus with 18 samples.

Results

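The 37 genes considered here encode mouse enzymes of glycolysis, of lactate and pyruvate metabolism, of the pentose phosphate pathway and of glycogen metabolism. They were taken from a list of symbols that was chosen with earlier results of these data known. Each is shown by the brightest probe set (mean over all arrays) annotated to that gene only. It was taken from chip A where possible and otherwise from B, then C. By this rule 32 of the 37 were measured, 31 on chip A and 1, Pdk2, on chip B, out of 15964 genes measured in the same way. Of the other 5, Gapdh was matched only by 3 probe sets that carry several symbols, and Gpi1, Eno1, Pfkfb1 and G6pdx were not analysed here.

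Cells came from retinas of FVB/N mice at postnatal day 8, homozygous for a Tie2-GFP transgene, which were pooled before dissociation with papain and sorting by GFP. The GFP-positive population, labelled endothelial, was set against the GFP-negative population, which holds the other retinal cells and carries the same transgene. Amplified RNA of each population was hybridised to 3 arrays of each of the 3 Affymetrix MGU74v2 chips, 18 arrays in all. GFP in these mice follows the promoter of Tie2, a receptor of endothelial cells that some macrophages and blood-forming cells also use. Nothing in the labels states that the arrays of a population represent separate animals, so p-values here measure the spread between arrays, which may be technical.

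Glycolysis converts glucose to pyruvate in the cytosol, and lactate dehydrogenase turns pyruvate into lactate when it is not passed to the mitochondria through pyruvate dehydrogenase. Several steps are carried out by isoenzymes from different genes, whose use differs between tissues: Aldoc, Eno2 and Ldhb are well known from brain and retina, Aldoa and Ldha from many dividing and glycolytic cells. Growing endothelial cells are known to draw most of their energy from glycolysis, with Pfkfb3 as a major regulator, and photoreceptors and Müller glia are also known for strong aerobic glycolysis. The pentose phosphate pathway supplies ribose and NADPH, and glycogen is the stored form of glucose.

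Tek, which encodes Tie2, was at 547, 537 and 240 intensity units in GFP-positive cells, against 9.48, 8.58 and 6.62 in GFP-negative cells. Of 14 endothelial marker genes 10 were higher in GFP-positive cells, and their summed intensity was 15220 to 18520 in GFP-positive against 2395 to 3440 in GFP-negative arrays. The 4 that did not pass were Kdr, at 2235 ± 233 against 2245 ± 503 (mean ± SD, n = 3 arrays each, as in all such pairs), Pecam1, at 50.2 ± 7.2 against 52.6 ± 4.6, Egfl7 and Plvap. Without Kdr the sums were 13230 to 16080 against 584 to 656.5. Of 10 genes of Müller glia and progenitors 9 were lower, with sums of 825 to 1939 against 5601 to 8396, and of 10 photoreceptor genes 4 were lower, with sums of 455 to 829 against 1562 to 2807. Of 13 genes of inner retinal neurons 3 were lower and 1 higher, with sums of 524 to 546 against 926 to 1037. That gap lay in Pax6, at 8.2 ± 2.3 against 330.5 ± 84.4, and Snap25, at 28.7 ± 14.7 against 250.7 ± 45.1. Syt1 was also lower but dim. Stmn2 was the higher one, at 193.7 ± 81.0 against 42.1 ± 5.9. Of 12 microglia and leukocyte genes 3, Lcp1, Laptm5 and C1qb, were higher, with sums of 1449 to 2750 against 472 to 512.5, whereas the defining leukocyte gene Ptprc was at 40.1 against 38.0 on average. Summed over 8 pericyte genes, intensity was 254 to 343 against 295 to 358, and over 4 astrocyte genes 151 to 180 against 372 to 820. The astrocyte gap lay in Pdgfra, the 1 that was lower, at 20.2 ± 3.3 against 418 ± 246. The other 3 did not pass and had higher means in GFP-positive cells, the brightest being Gfap at 79 ± 21 against 56 ± 3. The 3 erythroid genes measured gave sums of 170 to 194 against 144 to 163. No marker was called in the pericyte or erythroid lists, and no marker read 0 on any array.

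One array, GFP-positive replicate 3, differed from the rest of its population. Its Spearman rank correlation with them was 0.911 to 0.929 over the chips, against 0.960 to 0.987 for every other pair of arrays from 1 population. Its leukocyte sum was 2750, against 1545 and 1449 on GFP-positive replicates 1 and 2, and most of the excess came from Csf1r, at 930 against 37.3 and 41.2. Without Csf1r and Lcp1, the GFP-negative sums were 352 to 375. Those of GFP-positive replicates 1 and 2 were 543 and 499.8, and that of replicate 3 was 552. Its Müller glia sum was 1939, against 825 and 1152, and rested on Glul, at 986 against 136 and 156. Without Glul the sums were 953 on replicate 3 and 689 and 996 on the other two. These omissions were chosen after the values were seen. Results on the members are therefore given with and without this array wherever it changed a call.

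Transcripts of the glycolytic route were mostly lower in GFP-positive than in GFP-negative cells. Of the 32 members 12 were lower, 1 was higher and 19 did not pass (limma on the log2 of intensity plus 16, Benjamini-Hochberg adjusted p under 0.05 within the chip). The members that fell made up 37.5%, and the 1 that rose 3.12%, whereas of all 15964 genes 11.3% were lower and 9.43% higher. Because the members were chosen with earlier results of these data known, these shares are descriptions and not a test. The median log2 difference, GFP-positive minus GFP-negative as in every difference below, was -0.36 over the members and 0.04 over all genes. At 14 members all 3 GFP-positive arrays lay below all 3 GFP-negative arrays, and at 3 they lay above. Over all genes these separations occurred at 18.7% and 21.8%. Counted by probe set, 9.25% were lower and 9.09% higher for chip A. The shares were 11.3% lower and 9.6% higher for chip B, and 5.88% lower and 3.4% higher for chip C.

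The members were brighter than most genes. Only 6 of the 32 lay below the median of their chip, against 40.1% of all genes, and all-gene shares are therefore also given for bright genes. Among the 26 members at or above the chip median 11 were lower and 0 higher, or 42.3% lower, whereas of 9558 genes at or above the median 15.6% were lower and 12.8% higher. Without GFP-positive replicate 3, 16 members were lower and 4 higher, or 50.0% and 12.5%, whereas of all genes 15.9% were lower and 14% higher. Because these are bulk populations, fewer cells of a type and less RNA per cell cannot be told apart. The summed marker intensities of Müller glia, photoreceptors and inner neurons given above were also lower on every GFP-positive array than on every GFP-negative one, although most photoreceptor and inner neuron markers did not pass singly. Their part in these differences was not tested.

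**Figure D1:**
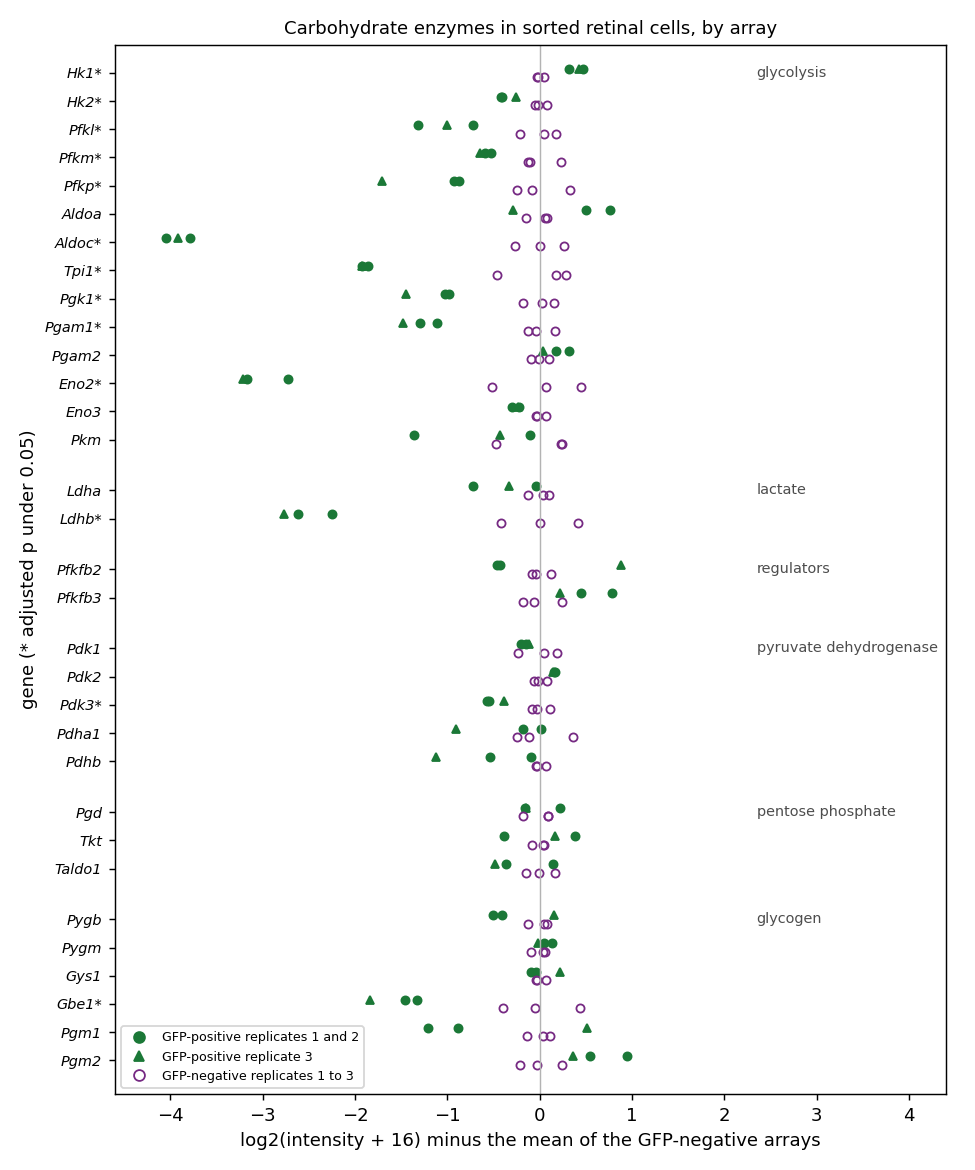
Each row is a measured member, and each point is 1 array, plotted as log2(intensity + 16) minus the mean of the 3 GFP-negative arrays. Filled green marks are GFP-positive arrays, with a triangle for replicate 3, open purple circles are GFP-negative arrays, and asterisks mark an adjusted p under 0.05. The largest separations are those of Aldoc, Eno2 and Ldhb, at log2 differences of -3.92, -3.04 and -2.55.

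At the entry step, where hexokinases trap glucose by phosphorylation, the 2 genes went opposite ways. Hk1, the broadly used hexokinase, was at 46.8, 54.1 and 52.0 in GFP-positive cells, against 33.6, 33.9 and 36.1 in GFP-negative cells, and was the member that rose (log2 difference 0.40, SE 0.07, adjusted p = 0.0138). Hk2, the insulin-responsive hexokinase of muscle and many tumours, was at 8.99, 9.18 and 11.9 in GFP-positive cells, against 16.2, 16.9 and 19.2 in GFP-negative cells (-0.36, SE 0.08, adjusted p = 0.0266). Neither gene's arrays overlapped between the populations. Both probe sets were below the median of the chip, and the Hk2 difference depended on the added constant, at -0.75 with 1 and -0.14 with 64 in place of 16. Both calls were narrow: leaving out GFP-positive replicate 2 or any GFP-negative array ended the Hk1 call (adjusted p 0.0509 to 0.0605), and leaving out any array but GFP-positive replicate 3 ended the Hk2 call (adjusted p 0.0712 to 0.108). A dimmer Hk2 probe set, at 5.98 ± 0.99 against 5.72 ± 0.40, did not pass (0.02).

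Phosphofructokinase commits sugar to glycolysis, and all 3 of its subunit genes fell, beside 11.3% of all genes. Pfkl, the liver-type subunit, was at 100.1, 160.2 and 129 in GFP-positive cells, against 311, 282 and 233 in GFP-negative cells, a log2 difference of -1.01 (SE 0.18, adjusted p = 0.0135). Pfkp, the platelet-type subunit also abundant in brain, was at 175, 167 and 90.9 in GFP-positive cells, against 422, 278 and 314 in GFP-negative cells (-1.17, SE 0.27, adjusted p = 0.0319). Pfkm, the muscle-type subunit, was at 61.1, 57.6 and 55.2 in GFP-positive cells, against 115, 87.3 and 85.5 in GFP-negative cells (-0.59, SE 0.12, adjusted p = 0.0190). No GFP-positive array reached a GFP-negative one for any of the 3, and the lowest Pfkp value was that of replicate 3. A dimmer Pfkp probe set on chip A also fell (-1.09, adjusted p = 0.0161), whereas that on chip B, at 51.0 ± 4.5 against 61.7 ± 2.0, did not pass (-0.21). The Pfkl call ended without GFP-negative replicate 1 or 2 (adjusted p 0.0566 and 0.0554), the Pfkm call without GFP-positive replicate 2 (adjusted p = 0.0636), and the Pfkp call without that array or any GFP-negative array (adjusted p 0.0578 to 0.108).

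The aldolases, which split fructose bisphosphate into trioses, showed the widest gap between isoenzymes. Aldoc, the brain-type aldolase, was at 28.4, 37.5 and 32.7 in GFP-positive cells, against 867, 722 and 593 in GFP-negative cells. Its log2 difference was -3.92 (SE 0.15, adjusted p = 5.723e-05). The GFP-positive values lay below the chip median and may hold mostly background, so the size is uncertain: it was -4.42 with a pseudocount of 1 and -3.02 with 64. Aldoa, the muscle-type and most widely used aldolase, was at 1173, 1400 and 670.0 in GFP-positive cells, against 857, 872 and 743 in GFP-negative cells. The populations overlapped because replicate 3 lay below all GFP-negative arrays, and Aldoa did not pass (0.32, SE 0.27, adjusted p = 0.500). Without that array Aldoa was higher in GFP-positive cells (0.63, adjusted p = 0.0145). The Aldoc call held whichever array was left out, with adjusted p of at most 0.00127. A dim Aldoc probe set on chip B, at 23.6 ± 14.9 against 19.2 ± 2.4, did not pass. Both Aldoa probe sets are of the kind marked as shared by a gene family, so signal of related sequences may enter them, and the other, at 397 ± 125 against 321 ± 59, did not pass (0.26).

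At the triose and phosphoglycerate steps 3 of the 4 measured genes fell, beside 11.3% of all genes. Gapdh was not measured. Tpi1, which interconverts the trioses and has a single gene, was at 319, 333 and 318 in GFP-positive cells, against 1410, 1526 and 905 in GFP-negative cells (-1.90, SE 0.20, adjusted p = 0.00180). Pgk1, the first ATP-yielding enzyme of the route, was at 1008.5, 977.5 and 727 in GFP-positive cells, against 2238, 2037 and 1766 in GFP-negative cells (-1.15, SE 0.16, adjusted p = 0.00493). Pgam1, the brain-type phosphoglycerate mutase, was at 207.5, 236 and 180.1 in GFP-positive cells, against 516, 598 and 485 in GFP-negative cells (-1.30, SE 0.13, adjusted p = 0.00140). All 3 genes were well separated, and their calls held without any single array, with adjusted p of at most 0.0270. A dimmer Pgk1 probe set on chip B, also marked as shared by a gene family, fell too (-0.60, adjusted p = 0.00691). Pgam2, the muscle-type mutase, was dim at 25.2 ± 4.1 against 20.4 ± 2.4 and did not pass (0.18, SE 0.10).

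Of the enolases, which form phosphoenolpyruvate, the neuronal Eno2 was at 23.4, 37.9 and 22.3 in GFP-positive cells, against 233, 356 and 468 in GFP-negative cells. Its log2 difference was -3.04 (SE 0.27, adjusted p = 0.000993), and the call held whichever array was left out. Here too the GFP-positive values lay below the chip median, and the size was -3.60 with a pseudocount of 1 and -2.14 with 64. Eno3, the muscle enolase, was at 55.2, 51.6 and 54.9 in GFP-positive cells, against 65.8, 71.5 and 65.0 in GFP-negative cells. Its arrays did not overlap, but it narrowly missed the threshold (-0.25, SE 0.07, adjusted p = 0.0519). With GFP-positive replicate 3 left out it was called lower (-0.27, adjusted p = 0.0481). Pkm, the pyruvate kinase of most tissues outside liver, was at 146, 369 and 292 in GFP-positive cells, against 473, 471 and 283 in GFP-negative cells. These arrays overlapped and Pkm did not pass (-0.63, SE 0.37, adjusted p = 0.323), nor did its other probe sets, at -0.22 on chip A and -0.10 on chip C. Both of those other probe sets are marked as shared by a gene family.

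Of the lactate dehydrogenase genes Ldhb fell and Ldha did not pass. Ldhb, the heart-type subunit that favours lactate oxidation, was at 194, 147 and 131 in GFP-positive cells, against 1320.4, 989 and 731 in GFP-negative cells. Its mean was lower by a factor of 6.44 and its log2 difference was -2.55 (SE 0.24, adjusted p = 0.00128). Ldha, the muscle-type subunit that favours lactate formation, was at 1107, 1786 and 1456 in GFP-positive cells, against 1968, 1881 and 1681 in GFP-negative cells. Ldha was bright in both populations, 1 GFP-positive array lay among the GFP-negative ones, and it did not pass (-0.37, 95% interval -0.81 to 0.08, adjusted p = 0.243). The Ldhb call held without any single array (adjusted p at most 0.0104), although its other chip A probe set, near 7 units in both populations, did not pass.

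Within-array ratios were used to ask whether members of a pair of related genes differed from each other in their response. Of 19 pairs listed, 13 had both genes on chip A, and at 8 of them the ratio did not overlap between the populations. With 3 arrays against 3, an exact two-sided permutation test cannot give a p below 0.1, which each of the 8 reached, and 0.1625 was the lowest value after Benjamini-Hochberg adjustment over the 13 pairs. No pair therefore passed, and the sizes are given as descriptions. How often other gene pairs separate was not computed, so the count of 8 has no background share. For single genes over all chips, the GFP-positive arrays lay wholly below the GFP-negative ones at 18.7% and wholly above at 21.8%. The log2 ratio of Aldoa to Aldoc was larger in GFP-positive cells by 4.24, that of Ldha to Ldhb by 2.18, that of Pfkm to Pfkl by 0.42 and that of Pdk1 to Pdk3 by 0.34. The ratio of Eno2 to Eno3 differed by -2.78, that of Pgam1 to Pgam2 by -1.47, that of Hk2 to Hk1 by -0.77 and that of Pfkp to Pfkm by -0.58. In the other 5 pairs, Pfkp with Pfkl, Pfkfb3 with Pfkfb2, Pdha1 with Pdhb, Pygb with Pygm and Pgm1 with Pgm2, the populations overlapped. Ratios that involve a dim gene depend on the added constant: with 64 in place of 16 the Hk2 to Hk1 difference was -0.36 and the Pdk1 to Pdk3 difference 0.18. Without GFP-positive replicate 3 the Pfkp to Pfkm difference was -0.34, and 11 pairs did not overlap, but fewer arrays make overlap less likely.

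**Figure D2:**
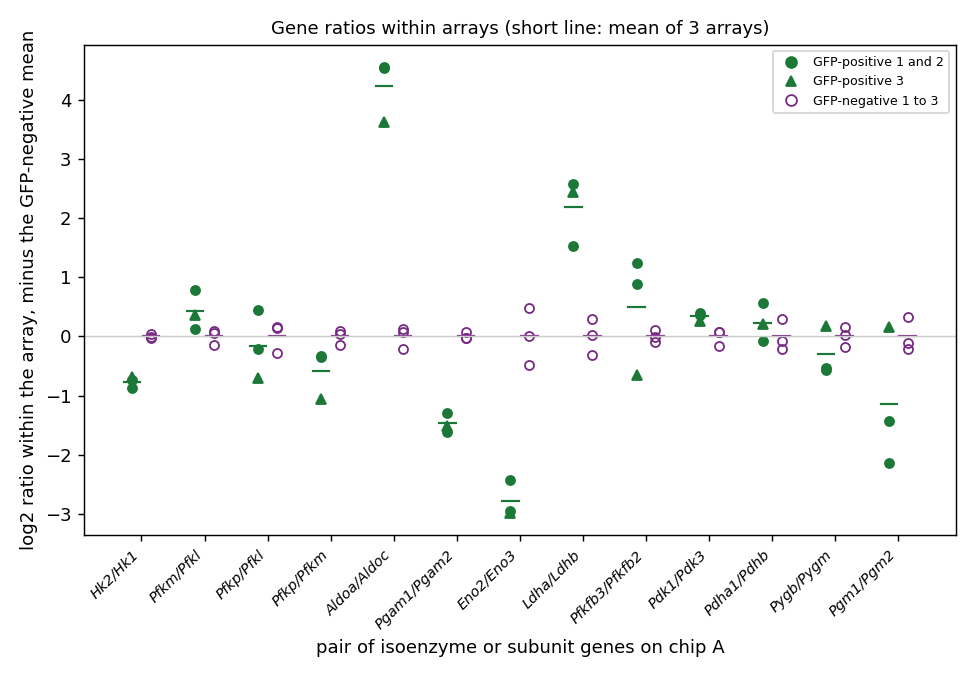
For each pair on the horizontal axis, points give the log2 ratio of the first gene to the second (intensity + 16) on each chip A array, minus the mean of the GFP-negative arrays, so that 0 is the GFP-negative level. Filled green marks are GFP-positive arrays, with a triangle for replicate 3, open purple circles are GFP-negative arrays, and short lines are means. The Aldoa/Aldoc and Ldha/Ldhb ratios lie above all GFP-negative arrays by 4.24 and 2.18 on average, and Eno2/Eno3 below by -2.78.

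Pfkfb2 and Pfkfb3 encode bifunctional enzymes that make and remove the sugar bisphosphate known as the strongest activator of phosphofructokinase. Pfkfb3, the form best known from endothelial sprouting, was at 78.6, 103.5 and 64.7 in GFP-positive cells, against 45.3, 50.5 and 65.7 in GFP-negative cells. The populations overlapped by 1 array, and Pfkfb3 did not pass (0.49, SE 0.18, adjusted p = 0.129), but it was higher without GFP-positive replicate 3 (0.62, adjusted p = 0.0427). A dimmer Pfkfb3 probe set, at 26.4 ± 12.4 against 28.6 ± 3.4, did not pass (-0.11). Pfkfb2, the heart-type form, was at 25.3, 24.6 and 86.4 in GFP-positive cells, against 36.8, 38.1 and 44.9 in GFP-negative cells. Replicate 3 read it far above the other GFP-positive arrays: the log2 difference was -0.01 (adjusted p = 0.995) with that array and -0.45 without it (adjusted p = 0.0174). The chip B probe set of Pfkfb2, brighter at 53.8 ± 4.2 against 127.5 ± 22.1, was lower in GFP-positive cells (-1.03, SE 0.13, adjusted p = 0.00215), and that on chip C, at 136 ± 52 against 217 ± 51, did not pass (-0.66, adjusted p = 0.260).

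Pyruvate enters the mitochondria through the pyruvate dehydrogenase complex, which kinases of the Pdk family switch off. Pdk3 was at 40.6, 41.5 and 48.3 in GFP-positive cells, against 74.8, 63.3 and 66.2 in GFP-negative cells, and fell (-0.50, SE 0.09, adjusted p = 0.0137). Its arrays did not overlap, but the call ended without GFP-positive replicate 2 or GFP-negative replicate 1 or 3 (adjusted p 0.0520 to 0.0550), and its chip C probe set did not pass (0.19). Pdk1, the kinase best known as a target of hypoxia, was at 120, 125 and 128 in GFP-positive cells, against 162, 116 and 146 in GFP-negative cells and did not pass (-0.15, 95% interval -0.45 to 0.14). Pdk2, on chip B, was at 42.6, 43.4 and 42.1 in GFP-positive cells, against 34.5, 36.0 and 39.9 in GFP-negative cells. The Pdk2 arrays did not overlap, and it did not pass (0.15, adjusted p = 0.245). The catalytic subunits did not pass either: Pdha1 was at 297 ± 95 against 377 ± 92 (-0.35), and Pdhb at 130.1 ± 49.8 against 195 ± 9 (-0.58, adjusted p = 0.184). Replicate 3 gave the lowest value of both subunits among the 6 arrays.

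No measured enzyme of the pentose phosphate pathway passed in either direction. Pgd, the phosphogluconate dehydrogenase of the oxidative arm, was at 70.8, 97.0 and 71.5 in GFP-positive cells, against 86.9, 86.7 and 69.4 in GFP-negative cells (-0.02, 95% interval -0.36 to 0.32). Tkt, the transketolase of the non-oxidative arm, was at 80.4, 149 and 125 in GFP-positive cells, against 103, 113 and 115 in GFP-negative cells (0.05, 95% interval -0.44 to 0.54). Taldo1, the transaldolase, was at 256, 175 and 159.9 in GFP-positive cells, against 259.5, 228 and 206 in GFP-negative cells (-0.24, 95% interval -0.69 to 0.21). All 3 overlapped between the populations, and these intervals leave room for differences of up to 0.69 in size on the log2 scale. Their adjusted p-values were 0.464 to 0.936.

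Among genes of glycogen metabolism 1 of 6 fell, or 16.7%, near the 11.3% of all genes. Gbe1, the branching enzyme, was at 22.0, 25.6 and 13.1 in GFP-positive cells, against 125, 63.3 and 84.9 in GFP-negative cells (-1.54, SE 0.24, adjusted p = 0.00847), and its call held without any single array (adjusted p at most 0.0391). Its GFP-positive values also lay below the chip median, and the size was -2.11 with a pseudocount of 1 and -0.87 with 64. Gys1, the glycogen synthase of tissues other than liver, was at 77.0 ± 11.2 against 74.5 ± 3.6 (0.03, 95% interval -0.22 to 0.28). Pygm, the muscle phosphorylase, was dim at 24.4 ± 2.1 against 22.9 ± 2.1 and did not pass. Pygb, the brain phosphorylase that releases glucose units from glycogen, was at 39.3, 43.6 and 72.1 in GFP-positive cells, against 65.7, 67.0 and 56.2 in GFP-negative cells. With replicate 3 above all other arrays, Pygb did not pass (-0.25), and without it Pygb was lower (-0.46, adjusted p = 0.0191). A much brighter Pygb probe set on chip C, at 684 ± 206 against 522 ± 110, lay the other way and did not pass (0.36, adjusted p = 0.443). It is marked as shared by a gene family, as are those of Aldoa, so signal of related sequences may enter it.

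The phosphoglucomutase genes Pgm1 and Pgm2 were also divided by that array. Pgm1 was at 239.7, 303 and 826 in GFP-positive cells, against 586, 620 and 518 in GFP-negative cells. Replicates 1 and 2 lay below every GFP-negative array and replicate 3 above them, so that Pgm1 did not pass (-0.53, adjusted p = 0.501) but was lower without replicate 3 (-1.05, adjusted p = 0.00400). Pgm2 was at 128, 93.4 and 80.6 in GFP-positive cells, against 72.5, 48.7 and 57.8 in GFP-negative cells. Its arrays did not overlap, it did not pass (0.62, SE 0.19, adjusted p = 0.0744), and it was higher without replicate 3 (0.74, adjusted p = 0.0325). Older annotation exchanges the symbols Pgm1 and Pgm2 in the mouse, and the current RefSeq symbols are used.

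**Figure D3:**
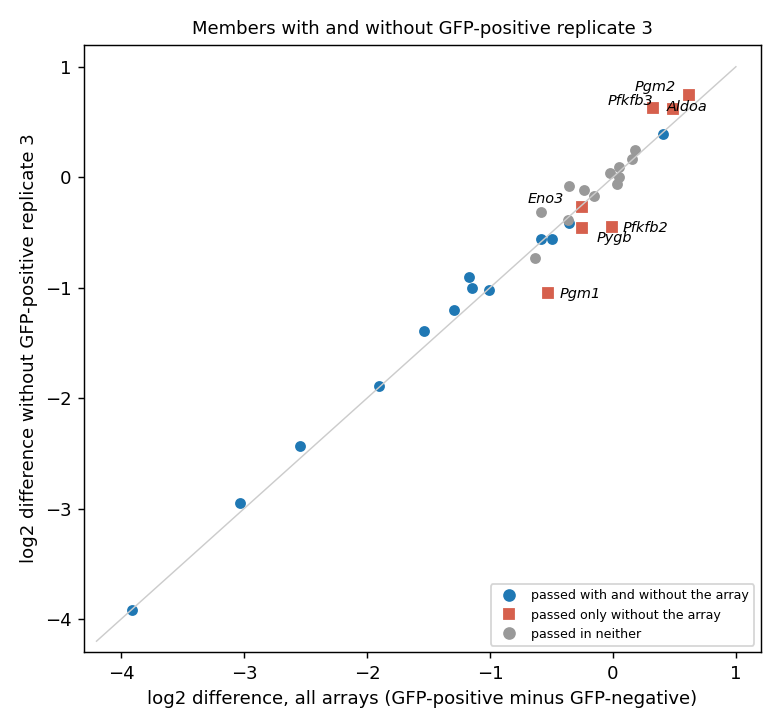
Each point is a measured member, with its log2 difference (GFP-positive minus GFP-negative) over all arrays on the horizontal axis and without GFP-positive replicate 3 on the vertical axis, and the line marks equal values. Blue points passed in both fits, grey points in neither, and the 7 red squares passed only without the array. Pgm1 moved the most among these in size, to -1.05 without the array, against -0.53 with it.

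Thus 7 members passed only without GFP-positive replicate 3: Aldoa, Pfkfb3 and Pgm2 as higher, and Eno3, Pfkfb2, Pygb and Pgm1 as lower. All 13 members called over all arrays also passed without it.

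Agreement between probe sets of 1 gene was tested by the fit on each of them. The 32 members had 53 probe sets, and 16 members had over 1. No member had probe sets called in opposite directions, with 15 probe sets lower and 1 higher in all. Among the 13 called members Pfkp and Pgk1 had a further probe set that also fell, whereas the further probe sets of Hk2, Aldoc, Ldhb and Pdk3, and the third of Pfkp, did not pass. Those of Hk2, Aldoc, Ldhb and Pdk3 had differences of 0.02, 0.11, 0.03 and 0.19, opposite in sign to the probe sets used. Those of Hk2, Ldhb and Aldoc had means of 5.72 to 23.6 units, below the median of their chip. The further Pgk1 probe set, which fell, was also below the median of its chip, at 17.2 ± 1.2 against 34.4 ± 4.3. That of Pdk3, at 62.7 ± 11.1 against 52.4 ± 1.6, was not.

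**Figure D4:**
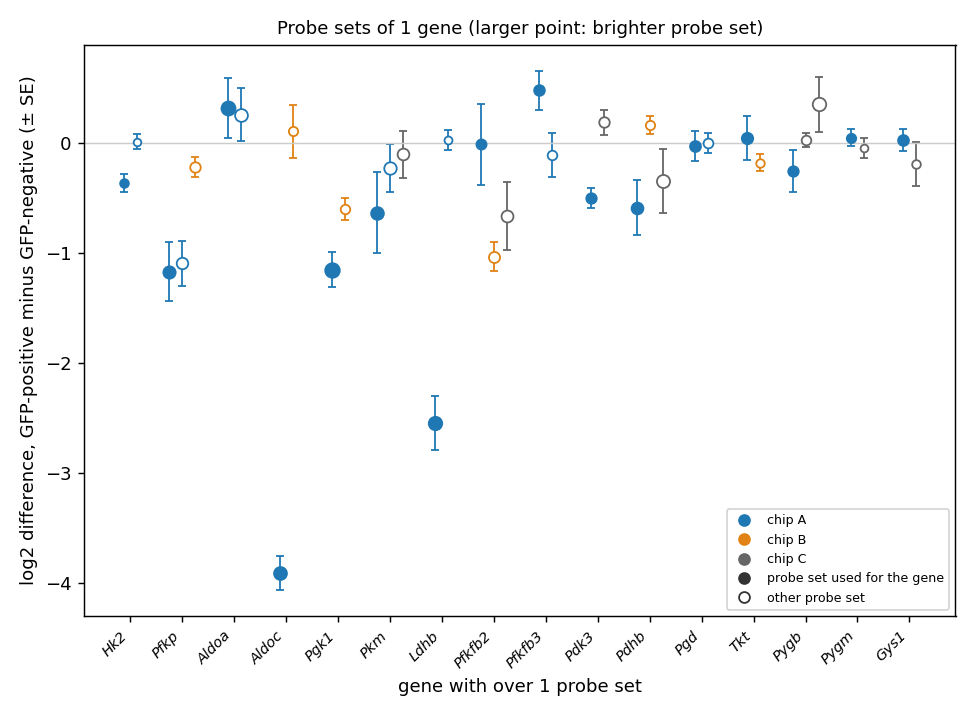
For the 16 members with over 1 probe set, each point is a probe set, placed by its log2 difference (GFP-positive minus GFP-negative) with its SE as the bar. Filled points are the probe sets used for the gene, open points are others, colour gives the chip, and larger points are brighter. The chosen Aldoc and Ldhb probe sets stand at -3.92 and -2.55, while their dim further probe sets lie near 0.

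Genes of neighbouring pathways were read in the same way. Of 44 measured further genes of glycolysis, the pentose phosphate pathway and glycogen, 4 were lower, 2 higher and 38 did not pass, with a median log2 difference of 0.02, and without GFP-positive replicate 3 the counts were 3 lower and 3 higher. The shares over all arrays, 9.09% lower and 4.55% higher, were no larger than the 11.3% and 9.43% of all genes. Without GFP-positive replicate 3, 15.9% of all genes were lower and 14% higher. Gsk3b, a kinase that inhibits glycogen synthase, differed by -1.35 (adjusted p = 0.0103), Pgm3, a mutase of amino sugars, by -0.80 (adjusted p = 0.0426), Ugp2, which makes the UDP-glucose used for glycogen, by -0.77 (adjusted p = 0.0141) and Pdhx, a component of the pyruvate dehydrogenase complex, by -0.45. Pgm5, a mutase relative found at adhesion sites, rose by 1.72 (adjusted p = 0.00308) and Gpd2, the mitochondrial glycerol phosphate dehydrogenase, by 0.90 (adjusted p = 0.0125). The Gpd2 probe set is marked as shared by a gene family. Gpd1l was bright and did not pass, at 183.5, 191 and 2804 in GFP-positive cells, against 366, 496 and 248 in GFP-negative cells. Pgm3 and Pdhx missed the threshold without GFP-positive replicate 3 (adjusted p = 0.0576 and 0.0646), whereas Gpd1l was lower without it (adjusted p = 0.0421).

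Of 15 genes of glucose and lactate transport only Bsg passed. The shares, 6.67% higher and 0% lower, were no larger than the 9.43% and 11.3% of all genes. Bsg, the basigin that escorts lactate transporters to the membrane and is abundant at the blood-brain barrier, was at 315, 392 and 305 in GFP-positive cells, against 102, 91.5 and 83.5 in GFP-negative cells (1.70, SE 0.12, adjusted p = 0.000493). Slc2a1, the glucose transporter of barrier endothelium, was at 100.7, 175 and 170 in GFP-positive cells, against 99.5, 73.2 and 50.9 in GFP-negative cells. Its arrays did not overlap, by a narrow margin, and it did not pass (0.86, SE 0.27, adjusted p = 0.0847). Slc37a4, the brightest of those that did not pass, carries glucose phosphate into the endoplasmic reticulum and was at 106 ± 68 against 186 ± 19. It passed as lower without GFP-positive replicate 3 (adjusted p = 0.000979), as did Emb (adjusted p = 0.00291).

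The citrate cycle burns the acetyl groups from pyruvate, and its list here also held malic enzymes and cytosolic isoenzymes. Of the 22 genes measured in that list 3 were lower and 1 higher, with a median log2 difference of -0.11. The shares were 13.6% and 4.55%, beside 11.3% and 9.43% of all genes, and are not those of the cycle alone. Without GFP-positive replicate 3, 5 were lower, with Idh3a and Me3 added, and 3 higher, with Fh1 and Idh3b added. In that fit 15.9% of all genes were lower and 14% higher. Me1, a cytosolic malic enzyme, differed by -1.05, Idh1, the cytosolic isocitrate dehydrogenase, by -0.59 and Idh3g, a subunit of the mitochondrial one, by -0.36, whereas Suclg2, a succinyl-CoA ligase subunit, rose by 0.53. The brightest that did not pass was Sdhb, at 520 ± 238 against 382 ± 52. None of 7 gluconeogenesis genes passed, the brightest being G6pc3 at 202, 242 and 1599 in GFP-positive cells, against 575, 787 and 634 in GFP-negative cells, which passed as lower without replicate 3 (adjusted p = 0.00221).

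**Figure D5:**
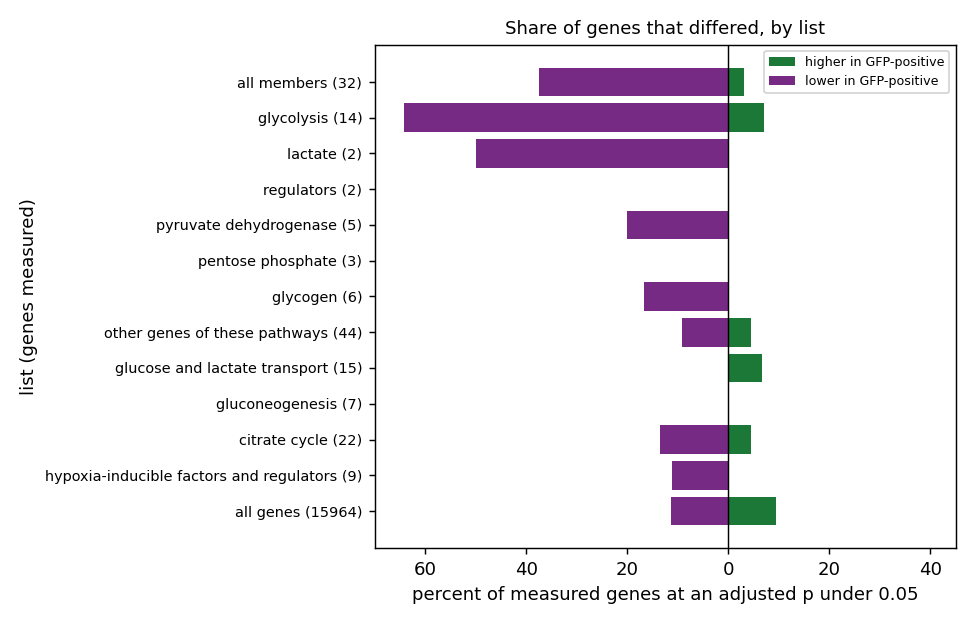
Bars give the percentage of measured genes that were lower (purple, to the left of 0) or higher (green, to the right) among GFP-positive cells, by the same threshold on adjusted p, for all members, their groups by role, neighbouring gene lists and all genes, with the number measured in brackets. Glycolysis shows 64.3% lower and 7.14% higher, against 11.3% and 9.43% of all genes, and the small groups rest on few genes.

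Many glycolytic genes are known targets of the hypoxia-inducible factors, which bind a short core sequence in promoters of active genes when oxygen is low. Of 9 measured genes of these factors and their regulators 1 was lower, Egln1, the main oxygen sensor of the pathway (-0.40, SE 0.10, adjusted p = 0.0482), a share of 11.1% beside 11.3% of all genes. Hif1a was bright in both populations, at 1538, 1575 and 751 in GFP-positive cells, against 1377, 1173 and 1414 in GFP-negative cells, and did not pass (-0.11, SE 0.30). The Hif1a probe set is marked as shared by a gene family, so signal of related sequences may enter it. Epas1, the factor abundant in endothelium, was dim at 29.7 ± 1.4 against 23.2 ± 2.1 and did not pass (0.22, adjusted p = 0.0937), although its arrays did not overlap.

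The promoters of the members were searched for the core in either of its forms, ACGTG or GCGTG, on both strands, in windows from 250 bases before to 50 bases after each RefSeq start (GRCm38.p6). All 32 members had 1 or more windows, 47 in all. A core was present in 35 of the 47 windows, or 74.5%, and in 43.8% of 32851 windows of all genes. Where GC content was at least 60%, it was present in 22 of 24 member windows (91.7%) and in 69.2% of 9690 windows of all genes, so base composition is shared with this count. Over genes, 9 of the 12 members that were lower had a core in a window, as did 17 of the 19 that did not pass. Genes with several windows have more chances of a match, and no share by gene was computed over all genes. These counts by gene therefore cannot be set beside the shares of windows. CACGTG, which contains the first form on both strands and is also bound by other factor families, stood in 10.6% of member windows and in 7.2% of all windows. Such matches describe letters in a window and not binding.

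The windows of the 4 members with the most negative log2 differences, Aldoc, Eno2, Ldhb and Tpi1, are shown beside that of Ldha, the relative of Ldhb that did not pass. Aldoc and Ldha have a further window with fewer matches. Sequences run 5′ to 3′ along the gene's strand, are credited to RefSeq (GRCm38.p6), and carry the core, on either strand, in capitals.
Aldoc promoter, chr11:78322823-78323122, plus strand: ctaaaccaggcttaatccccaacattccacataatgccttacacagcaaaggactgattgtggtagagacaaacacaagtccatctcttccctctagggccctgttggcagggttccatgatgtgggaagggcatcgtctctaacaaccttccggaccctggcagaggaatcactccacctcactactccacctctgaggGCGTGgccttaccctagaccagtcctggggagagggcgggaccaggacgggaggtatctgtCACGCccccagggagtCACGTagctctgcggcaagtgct
Eno2 promoter, chr6:124769624-124769923, minus strand: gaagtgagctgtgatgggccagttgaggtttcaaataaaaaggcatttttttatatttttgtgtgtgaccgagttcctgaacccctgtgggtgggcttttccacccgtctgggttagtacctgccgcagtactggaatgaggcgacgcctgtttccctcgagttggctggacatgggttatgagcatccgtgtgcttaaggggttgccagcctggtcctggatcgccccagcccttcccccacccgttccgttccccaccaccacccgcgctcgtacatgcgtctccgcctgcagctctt
Ldhb promoter, chr6:142507908-142508207, minus strand: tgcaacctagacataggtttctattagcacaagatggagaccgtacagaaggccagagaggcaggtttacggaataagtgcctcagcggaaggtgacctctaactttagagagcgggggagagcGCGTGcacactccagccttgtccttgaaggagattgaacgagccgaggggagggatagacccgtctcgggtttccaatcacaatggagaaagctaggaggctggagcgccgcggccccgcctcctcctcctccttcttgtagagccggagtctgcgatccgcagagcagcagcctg
Tpi1 promoter, chr6:124814109-124814408, minus strand: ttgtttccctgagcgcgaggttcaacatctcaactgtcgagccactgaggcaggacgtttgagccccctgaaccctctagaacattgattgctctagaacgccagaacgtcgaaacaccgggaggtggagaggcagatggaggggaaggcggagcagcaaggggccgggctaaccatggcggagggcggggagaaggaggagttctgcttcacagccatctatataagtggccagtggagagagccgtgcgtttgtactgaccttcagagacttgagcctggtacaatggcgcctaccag
Ldha promoter, chr7:46845554-46845853, plus strand: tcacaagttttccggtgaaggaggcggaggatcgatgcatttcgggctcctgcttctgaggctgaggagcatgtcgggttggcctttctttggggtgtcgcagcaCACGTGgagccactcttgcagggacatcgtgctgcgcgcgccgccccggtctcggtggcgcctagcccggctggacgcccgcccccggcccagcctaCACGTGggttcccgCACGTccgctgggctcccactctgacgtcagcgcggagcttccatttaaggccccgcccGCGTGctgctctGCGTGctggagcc
The Ldha window holds 7 matches, of which 4 come from 2 copies of CACGTG, while the Aldoc and Ldhb windows hold 3 and 1.  The Eno2 and Tpi1 windows hold none, nor does that of Gbe1, which was also lower.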

How the data were processed

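Amplified RNA of GFP-positive and GFP-negative retinal cells was measured on 3 arrays per population and chip, and groups and replicate numbers came from the sample titles. Each deposited value is the linear intensity of a probe set, and the sources used here do not say how the authors summarised probes, corrected background or scaled arrays. Array medians ranged from 43.3 to 44.5, 40.7 to 44.6 and 32.5 to 34.4 on chips A, B and C, so the values were taken as scaled. The number of arrays limits the precision, and dim readings may hold mostly background.

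Gene names came from the platform annotation, with symbols updated by Entrez identifier (0 changed). Each chip was fitted over all its probe sets on log2(intensity + 16) with limma 3.58.1 (lmFit, eBayes) in R 4.3.3. Two-sided p-values were adjusted by Benjamini-Hochberg and held to 0.05. The fit was tested on simulated data. Pairs of related genes were compared by exact permutation. The members and lists were chosen with earlier results of these data known. All measured members are named. In the lists other than markers, up to 3 called genes per direction and the brightest that did not pass are named. In the marker lists only some of the genes under this rule are named, plus Tek. Pdhx, Slc2a1, Emb, Epas1, Ptprc, Glul, Csf1r, Idh3a, Me3, Fh1, Idh3b and the endothelial markers that did not pass were added after their values were seen. Same-numbered GFP-positive and GFP-negative arrays did not deviate together (correlations of -0.37 to 0.29), so numbers were not taken as pairs. Figures were drawn with matplotlib 3.10.9.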

Additional observations from a re-analysis of the deposited data

How the results depend on the processing

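The 12 members that were lower stayed between 11 and 14 under quantile normalization, arrays scaled to 1 median, a pseudocount of 1 or of 64, a filter to brighter probe sets (11), robust limma-trend, array weights, adjustment over 3 chips and probe sets without a suffix. They were 9 with at least 2-fold, 7 at an adjusted p under 0.01, 2 of 16 on the second brightest probe set, and 8 to 16 when each array was left out in turn. The 1 higher member became 0 with brighter probe sets only, at an adjusted p under 0.01, with at least 2-fold and on the second brightest probe set, 4 with array weights, and 0 to 4 when each array was left out. With the replicate number as a block (replicate block) 1 member was higher and 10 lower: Hk1, Hk2 and Pdk3 lost their calls (adjusted p 0.0543, 0.0603 and 0.0541) and Pgm2 gained one (adjusted p = 0.0409). The second brightest probe set is the brightest of a gene's other probe sets on any chip, and it exists for fewer genes. For some genes, such as Pdhb, Pdk3, Pfkfb2 and Pygb, it was brighter than the one used. The filter to brighter probe sets removed Hk1 and Hk2, which lay below the chip median, and ended no call among the 26 members kept. Hk1 has only 1 probe set, and its difference of 0.40 was too small for the 2-fold minimum. The cause of the other changes was not tested. With a pseudocount of 64, differences of called members were smaller by over 1.5 times for Hk1 (0.22), Hk2 (-0.14), Pfkm (-0.39), Pdk3 (-0.30) and Gbe1 (-0.87), all still called. On the second brightest probe set the sign changed for Hk2 (0.017), Aldoc (0.11), Ldhb (0.030), Pfkfb3 (-0.11), Pdk3 (0.19), Pgd (0.0077), Tkt (-0.17), Pygb (0.36), Pygm (-0.038) and Gys1 (-0.18), none of them called there. Other sign changes were those of uncalled members near 0: Pfkfb2 with a pseudocount of 64 (0.029), Pgd with quantile normalization (0.0050) and array weights (0.15), and Gys1 with array weights (-0.020). Leaving out single arrays gave ranges of -0.45 to 0.22 for Pfkfb2, -0.15 to 0.041 for Pgd, -0.11 to 0.27 for Tkt and -0.064 to 0.093 for Gys1. The 8 gene pairs without overlap were 8 with quantile normalization and a pseudocount of 64, and 7 with a pseudocount of 1. They were 11 without GFP-positive replicate 3, where fewer arrays make overlap less likely. The Aldoa to Aldoc difference was 4.75 with a pseudocount of 1 and 3.33 with 64, and the Hk2 to Hk1 difference -1.29 and -0.36. Dim probe sets such as those of Hk2 and Pgam2 limit what small differences can show.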
